A study of Homo sapiens with 10 samples.

Results

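The SLC25 family, the carriers that move metabolites across the inner membrane of mitochondria, was followed in human embryonic stem cells (hESCs) treated with crotonate. Members were taken by name, as every gene symbol made of SLC25A and a number, and 48 of the 27492 genes in the 3 deposited tables met this rule. All 48 were listed in each table. The study asked how crotonate, a short-chain fatty acid that cells turn into crotonyl-CoA, alters gene expression and differentiation of hESCs in more than 1 pluripotent state.

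All cells came from the established hESC line H9, of wild-type genotype and carrying an LTR7-GFP reporter, in which a retroviral promoter active in pluripotent cells drives GFP. The 5 groups were primed hESCs after 12 days in 10 mM crotonate, untreated primed hESCs, hEPS cells (hESCs converted to an extended pluripotent state in LCDM medium) after 12 days in 10 mM crotonate, untreated hEPS cells, and endodermal cells differentiated from these hESCs in medium with Activin A and BMP4 and, at first, the inhibitor CHIR99021. The labels list 2 samples for each group, but the tables hold 1 FPKM column per group (fragments per kilobase of transcript, scaled to sequencing depth), so no SD, test or p-value of a group difference could be given. Every group is 1 line, so nothing here speaks to other donors.

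Mitochondrial carriers are small proteins of the inner membrane, built from repeats of a common fold, and most exchange 1 metabolite for another. They feed the respiratory chain with ADP and phosphate, let citrate and malate leave for the cytosol, and bring in amino acids, cofactors and acylcarnitines. Pluripotent cells are known for relying largely on glycolysis, and the carriers connect that pathway with the mitochondrial matrix through the malate-aspartate shuttle and citrate export.

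The labelled cell types were checked against marker genes. POU5F1, a core pluripotency factor, stood at 0.42 FPKM in crotonate-treated and 827 FPKM in untreated primed hESCs, at 261 FPKM in crotonate-treated and 461 FPKM in untreated hEPS cells, and at 0.809 FPKM in endodermal cells. Among 8 pluripotency markers, 4 had at least 1 FPKM in crotonate-treated and 7 in untreated primed hESCs, 7 in each hEPS column, and 4 in endodermal cells. Their summed FPKM was 198 in crotonate-treated and 2242 in untreated primed hESCs, and 941 in crotonate-treated and 1438 in untreated hEPS cells. NANOG went the other way in hEPS cells, at 25.1 FPKM in crotonate-treated and 15.3 FPKM in untreated cells. Of 8 lateral and cardiac mesoderm markers, 8 had at least 1 FPKM in crotonate-treated primed hESCs against 0 in untreated ones, and 8 in the cells labelled endodermal. Of 8 definitive endoderm markers, 7 had at least 1 FPKM in crotonate-treated and 2 in untreated primed hESCs, with a summed FPKM of 224 in crotonate-treated and 4.05 in untreated cells. In the cells labelled endodermal 3 of these 8 reached 1 FPKM and the sum was 139 FPKM. Of the defining factors, FOXA2 was at 0 and SOX17 at 0.0721 FPKM in endodermal cells, while GATA6 stood at 3.40 FPKM, against 0.0161 FPKM in untreated primed hESCs, so the markers bore out the label in part only. The summed FPKM of the 8 mesoderm markers was 798 in crotonate-treated and 0.257 in untreated primed hESCs, where TBX20, MEIS2 and PITX1 were at 0. It was 32.1 in crotonate-treated and 35.6 in untreated hEPS cells. In the cells labelled endodermal it was 532 FPKM, with a median marker at 47.7 FPKM, beside a median of 0.212 FPKM for the definitive endoderm markers. The name endodermal is therefore used for these cells as a label only. All 8 definitive endoderm markers had at least 1 FPKM in crotonate-treated and 7 in untreated hEPS cells, and their summed FPKM was 2569 in crotonate-treated and 156 in untreated hEPS cells. Cell type markers therefore moved with crotonate in both states, and the part of cell identity in the changes of the carriers was not tested. In these bulk samples, fewer cells of a type and less RNA per cell cannot be told apart.

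As a whole, the members taken by name were expressed in every group. At least 1 FPKM was reached by 40 members in crotonate-treated and 39 in untreated primed hESCs, by 38 in crotonate-treated and 40 in untreated hEPS cells, and by 38 in endodermal cells. The median member stood at 7.12 and 7.14 FPKM in crotonate-treated and untreated primed hESCs, where the median gene of the table stood at 4.54 and 4.21 FPKM. The summed FPKM of the members made up 0.251% of all FPKM in crotonate-treated against 0.31% in untreated primed hESCs, and 0.248% in crotonate-treated against 0.312% in untreated hEPS cells. The share in endodermal cells was 0.256%. In both cell states the members thus took a smaller share with crotonate. Most of the sum lay in a few genes: the 5 most abundant members held between 59.8% and 66.4% of it. Relatives without an SLC25A symbol (UCP1, UCP2, UCP3, MTCH1 and MTCH2) fall outside the name rule and are in none of these values. Of these, MTCH1 stood at 92.2 FPKM in crotonate-treated and 84.8 FPKM in untreated primed hESCs. It stood at 171 FPKM in crotonate-treated and 174 FPKM in untreated hEPS cells, and at 131 FPKM in endodermal cells.

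**Figure D1:**
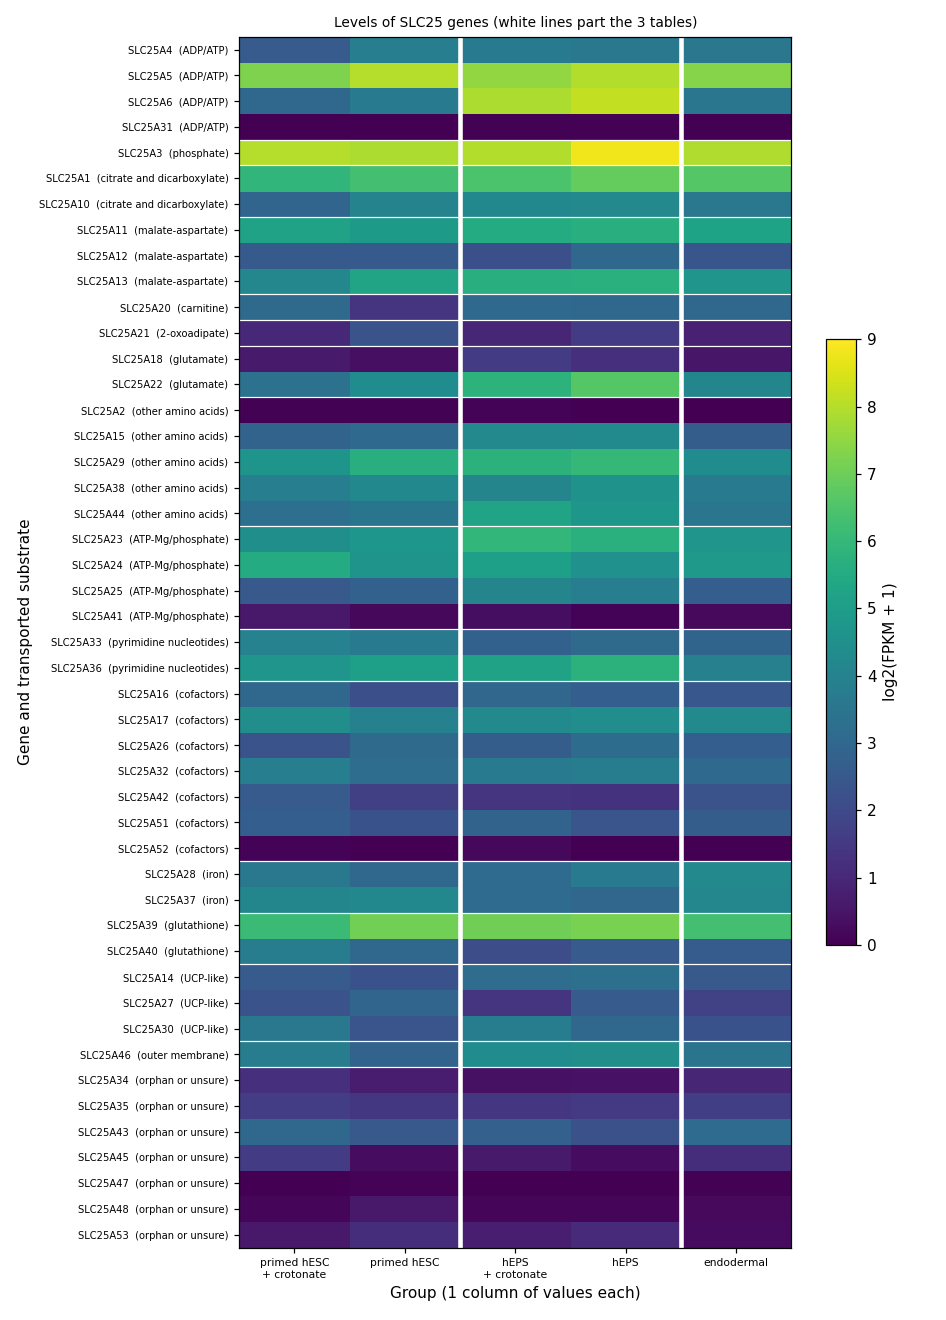
Levels of the SLC25 genes (1 is not shown) in the 5 columns of values, as log2(FPKM + 1), with genes grouped by the substrate they carry and white lines between the 3 tables. SLC25A3 and SLC25A5 were bright in every column, whereas SLC25A2, SLC25A31, SLC25A47 and SLC25A52 were dark throughout.

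A member was called higher or lower when its FPKM + 1 differed by at least 2-fold between the crotonate-treated and untreated columns of 1 table. At least 1 FPKM also had to be reached in either column, and members past this 1 FPKM filter are referred to as measured. Of 41 measured members in primed hESCs, 3 were called higher and 7 lower with crotonate, and 31 neither. This is 7.32% higher and 17.1% lower, beside 13.9% higher and 12.7% lower of all 13210 measured genes. In hEPS cells 0 of 40 measured members were called higher and 1 lower (2.5%), beside 8.42% higher and 3.02% lower of all 14161 measured genes. The median log2 change of the members came to -0.07 in primed hESCs, beside -0.08 over all genes, and -0.12 in hEPS cells, beside -0.09 over all genes. Which shares lay above those of all genes depended on the rule: at an FPKM ratio over 1.5, 29.3% of members were higher in primed hESCs beside 25.3% of all genes, and 25.0% lower in hEPS cells beside 18.1%. The medians lay close to those of all genes.

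The same counts were made over genes for other solute carriers. In primed hESCs 18 of 176 measured SLC genes outside the family were called higher and 33 lower, with a median log2 change of -0.18. Of all measured genes 13.9% were called higher and 12.7% lower there. In hEPS cells 23 of 172 were called higher and 3 lower, with a median of 0.23, beside 8.42% higher and 3.02% lower of all measured genes. More genes were called lower than higher in primed hESCs both within the family and among the other SLC genes. Solute carriers outside the family thus included genes called higher in hEPS cells, whereas no SLC25 member was called higher there.

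**Figure D2:**
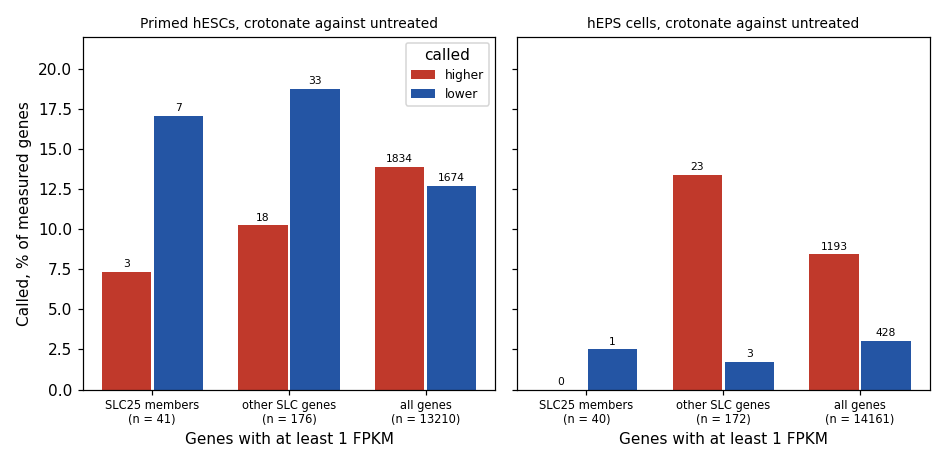
Share of measured genes called higher or lower with crotonate, in percent, for the SLC25 members, other SLC genes and all genes, with the number of called genes above each bar. In hEPS cells no SLC25 member was called higher and 1 was called lower, of 40 measured.

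The precision of single values could be judged because FPKM pairs within a table kept the steps of whole reads. For each measured member the smallest pair of read numbers that gives its 2 FPKM values was found, and a 95% interval of the FPKM ratio was computed from these reads by the exact binomial method. The reads behind the untreated value were at least 6 to 13789 (median 581) in primed hESCs and at least 5 to 9109 (median 636.5) in hEPS cells. These intervals are the widest the values allow and cover counting error only, not the spread between cultures. They left out a ratio of 1 for 37 of 41 members in primed hESCs and for 24 of 40 in hEPS cells. The same share over all genes was not computed. With many reads a small difference also leaves out 1, so these are not counts of changed members.

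**Figure D3:**
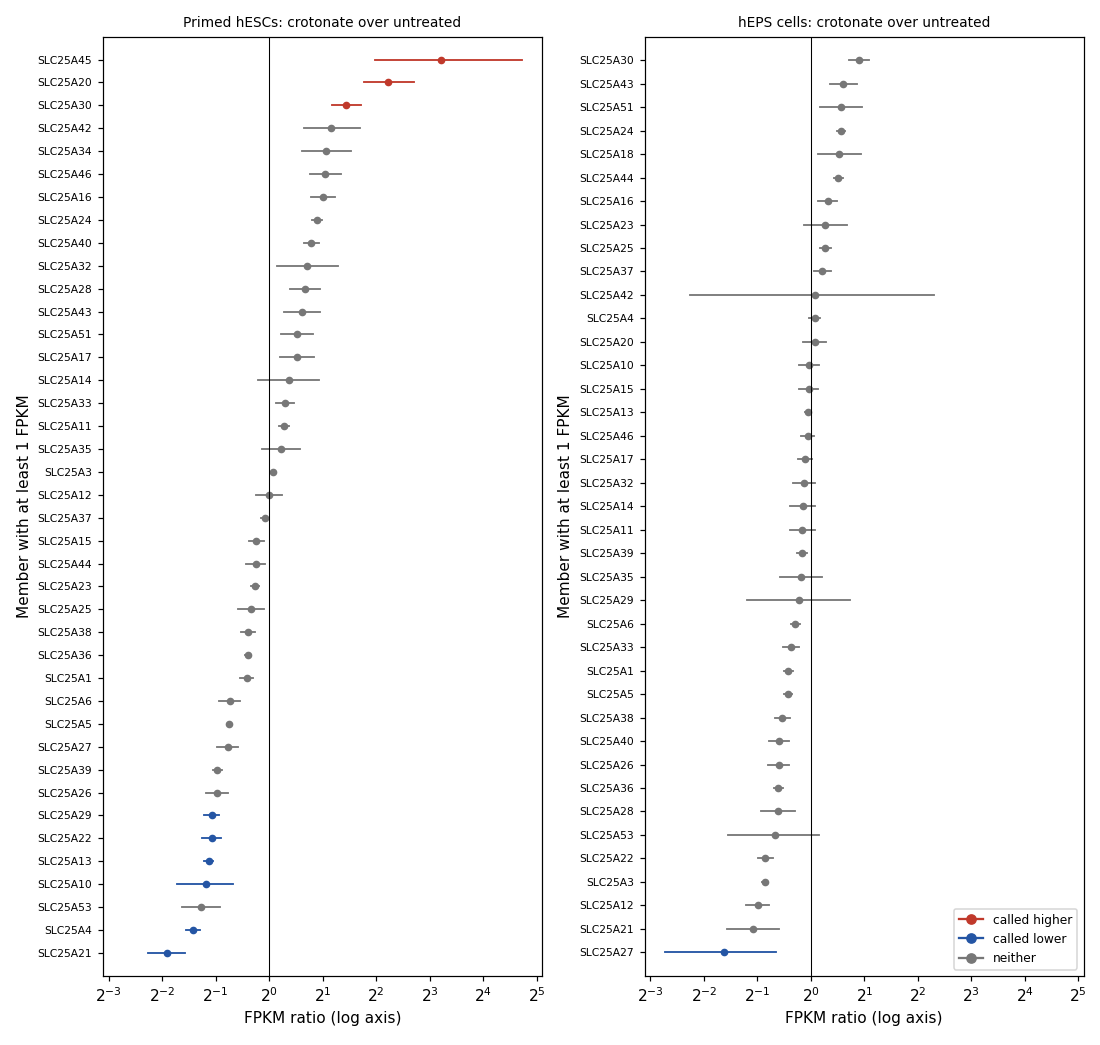
Ratio of FPKM in crotonate-treated over untreated cells for the measured SLC25 members (1 is not shown), on a log axis, with points for the ratio and lines for the 95% counting interval. SLC25A45, SLC25A20 and SLC25A30 lay highest in primed hESCs, and SLC25A27 lay lowest in hEPS cells.

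The carnitine-acylcarnitine carrier SLC25A20, which brings fatty acyl groups into the matrix for oxidation, had the largest log2 change of the measured members on the log2(FPKM + 1) scale, though the scarcer SLC25A45 had the larger FPKM ratio. It stood at 7.67 FPKM in crotonate-treated and 1.64 FPKM in untreated primed hESCs, at 7.34 FPKM in crotonate-treated and 7.0 FPKM in untreated hEPS cells, and at 7.27 FPKM in endodermal cells. Untreated primed hESCs were thus the 1 low group, and the other 4 FPKM values lay close together, though the column sums of the tables differ. Among 18437 genes shared by the tables SLC25A20 lay at percentile 58.6 in crotonate-treated and 39.2 in untreated primed hESCs. It lay at percentile 52.8 in crotonate-treated and 53.0 in untreated hEPS cells, and at 59.2 in endodermal cells. The log2 change in primed hESCs was 1.72, with an FPKM ratio of 4.69 (95% counting interval 3.44 to 6.5) on at least 211 reads in treated and 51 in untreated cells. In hEPS cells the ratio was 1.05, with an interval of 0.901 to 1.22. Of 6 partner genes of the carnitine system, 0 were called in primed hESCs. In hEPS cells CPT1A, the outer-membrane enzyme that makes acylcarnitines, was called higher, at 23.0 FPKM in crotonate-treated and 10.1 FPKM in untreated cells.

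SLC25A21 exchanges 2-oxoadipate, an intermediate of lysine breakdown on the way to crotonyl-CoA, for 2-oxoglutarate. It stood at 1.05 FPKM in crotonate-treated and 3.93 FPKM in untreated primed hESCs, at 0.969 FPKM in crotonate-treated and 2.04 FPKM in untreated hEPS cells, and at 0.79 FPKM in endodermal cells. The crotonate-treated value was the lower in both cell states, and it was called in primed hESCs alone (log2 change -1.27, FPKM ratio 0.266, interval 0.208 to 0.337). In hEPS cells the log2 change was -0.63, with an FPKM ratio of 0.475 (interval 0.336 to 0.663). Of 7 genes of lysine breakdown to crotonyl-CoA, all had the lower value in crotonate-treated primed hESCs, and 3 were called lower. Over all genes, 7204 of 13210 measured had the lower value there, and 12.7% were called lower. AASS, which takes the first steps of lysine breakdown, stood at 26.1 FPKM in crotonate-treated and 142 FPKM in untreated primed hESCs. GCDH, which forms crotonyl-CoA from glutaryl-CoA, stood at 10.4 FPKM in crotonate-treated and 24.8 FPKM in untreated primed hESCs. DHTKD1, a subunit of the 2-oxoadipate dehydrogenase, stood at 10.8 FPKM in crotonate-treated and 25.4 FPKM in untreated primed hESCs. In hEPS cells AASS was the 1 gene of the 7 called lower, at 9.26 FPKM in crotonate-treated and 20.6 FPKM in untreated cells.

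The ADP/ATP carriers export ATP from the matrix in exchange for ADP, and 4 genes encode them. SLC25A5, the form of proliferating cells, stood at 152 FPKM in crotonate-treated and 256 FPKM in untreated primed hESCs, at 185 FPKM in crotonate-treated and 248.6 FPKM in untreated hEPS cells, and at 163 FPKM in endodermal cells. SLC25A4, the heart and muscle form, stood at 5.03 FPKM in crotonate-treated and 13.5 FPKM in untreated primed hESCs, at 11.7 FPKM in crotonate-treated and 11.1 FPKM in untreated hEPS cells, and at 10.9 FPKM in endodermal cells. Crotonate-treated primed hESCs were the low group for SLC25A4, which was called lower there (log2 change -1.26, FPKM ratio 0.374, interval 0.342 to 0.409) and had a log2 change of 0.07 in hEPS cells. SLC25A5 was called in neither state, with log2 changes of -0.75 in primed hESCs and -0.43 in hEPS cells. SLC25A31, the form of male germ cells, had at most 0.0467 FPKM in any column.

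SLC25A6, the remaining ADP/ATP carrier, differed most between tables. It stood at 7.11 FPKM in crotonate-treated and 11.9 FPKM in untreated primed hESCs, at 237 FPKM in crotonate-treated and 290 FPKM in untreated hEPS cells, and at 10.7 FPKM in endodermal cells. Among 18437 genes shared by the tables it lay at percentile 57.2 in crotonate-treated and 68.1 in untreated primed hESCs, at 98.5 in crotonate-treated and 98.7 in untreated hEPS cells, and at 67.1 in endodermal cells. It thus held 54.7% of the ADP/ATP carrier FPKM in crotonate-treated and 52.8% in untreated hEPS cells, but 4.32% in crotonate-treated and 4.22% in untreated primed hESCs. The gene lies in the pseudoautosomal region, which the X and Y chromosomes share. Of 9 other protein-coding genes of this region on X with at least 1 FPKM in untreated cells of either state, 8 were listed lower in untreated primed hESCs than in untreated hEPS cells. AKAP17A was among them, at 0.879 FPKM in primed hESCs and 28.0 FPKM in hEPS cells. The exception was ASMTL, at 25.2 FPKM in untreated primed hESCs and 21.0 FPKM in untreated hEPS cells. The share of all genes listed lower in this way was not counted, and the column sums differ. They were 369750 FPKM in untreated primed hESCs and 610417 FPKM in untreated hEPS cells. The region was not low throughout, since CD99 stood at 171 FPKM in crotonate-treated primed hESCs and 212 FPKM in endodermal cells, against 1.70 FPKM in untreated primed hESCs, and 109 FPKM in untreated hEPS cells. The sources used here do not say how reads of this region were handled in each table, and its part in the levels of SLC25A6 was not tested. Within its own table SLC25A6 had an FPKM ratio of 0.599 in primed hESCs (interval 0.52 to 0.689) and of 0.818 in hEPS cells (interval 0.775 to 0.863), and was not called.

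**Figure D4:**
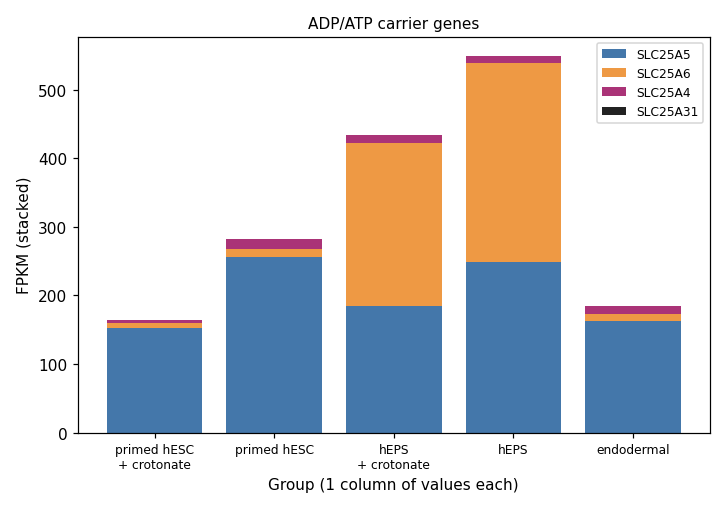
FPKM of the ADP/ATP carrier genes, stacked, in the 5 groups. SLC25A5 made up 92.6% of the stack in crotonate-treated and 91.0% in untreated primed hESCs, whereas SLC25A6 made up 54.7% in crotonate-treated and 52.8% in untreated hEPS cells.

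SLC25A3, which carries phosphate into the matrix for ATP synthesis, was the most abundant member over the 5 columns. It stood at 252 FPKM in crotonate-treated and 238 FPKM in untreated primed hESCs, at 246 FPKM in crotonate-treated and 447 FPKM in untreated hEPS cells, and at 244 FPKM in endodermal cells. The column sums of the tables differ, and as a share of its column SLC25A3 made up 0.0412% in crotonate-treated hEPS cells, the lowest of the groups, against 0.0732% in untreated hEPS cells and 0.0644% to 0.0674% in the other columns. The log2 change with crotonate came to 0.08 for primed hESCs and -0.86 for hEPS cells, short of a call, with an FPKM ratio of 0.55 in hEPS cells (interval 0.53 to 0.572). Of 15 measured genes of the ATP synthase, which uses this phosphate, ATP5E alone was called higher in primed hESCs (140 FPKM in crotonate-treated and 49.5 FPKM in untreated cells). In hEPS cells 0 of 15 were called, and their median log2 change was -0.53, beside 0.22 in primed hESCs.

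SLC25A1 exports citrate, the source of cytosolic acetyl-CoA. It stood at 59.2 FPKM in crotonate-treated and 79.1 FPKM in untreated primed hESCs, at 86.3 FPKM in crotonate-treated and 116 FPKM in untreated hEPS cells, and at 97.5 FPKM in endodermal cells. The crotonate-treated value was the lower in both states by a similar amount, with a log2 change of -0.41 in primed hESCs and -0.42 in hEPS cells, and no call. SLC25A10, the dicarboxylate carrier, stood at 6.74 FPKM in crotonate-treated and 15.3 FPKM in untreated primed hESCs, at 17.4 FPKM in crotonate-treated and 17.8 FPKM in untreated hEPS cells, and at 11.01 FPKM in endodermal cells. It was called lower in primed hESCs (log2 change -1.08, FPKM ratio 0.439, interval 0.301 to 0.629) and differed by a log2 change of -0.04 in hEPS cells. Of 7 genes on the route of citrate, ME1, which makes NADPH from malate, was called higher in primed hESCs (7.84 FPKM in crotonate-treated and 2.25 FPKM in untreated cells). IDH1, the cytosolic isocitrate dehydrogenase, was called lower (88.3 FPKM in crotonate-treated and 231 FPKM in untreated cells), and 0 of the 7 were called in hEPS cells.

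The malate-aspartate shuttle, which moves reducing equivalents of glycolysis into mitochondria, uses 3 of the carriers. SLC25A13 (citrin), a calcium-regulated aspartate-glutamate carrier, stood at 16.9 FPKM in crotonate-treated and 36.9 FPKM in untreated primed hESCs, at 50.1 FPKM in crotonate-treated and 52.0 FPKM in untreated hEPS cells, and at 25.2 FPKM in endodermal cells. Crotonate-treated primed hESCs were lowest, and the call was lower (log2 change -1.08, FPKM ratio 0.458, interval 0.431 to 0.485). Its paralog SLC25A12 (aralar) stood at 4.78 FPKM in both crotonate-treated and untreated primed hESCs, at 3.58 FPKM in crotonate-treated and 7.13 FPKM in untreated hEPS cells, and at 4.37 FPKM in endodermal cells. The paralogs thus had their larger change in different cell states, SLC25A12 with a log2 change of -0.83 in hEPS cells and 0.00 in primed hESCs, though the difference between states was not tested. SLC25A11, which exchanges 2-oxoglutarate for malate, stood at 35.2 FPKM in crotonate-treated and 29.0 FPKM in untreated primed hESCs, at 45.1 FPKM in crotonate-treated and 50.4 FPKM in untreated hEPS cells, and at 36.6 FPKM in endodermal cells. None of the 4 shuttle enzymes MDH1, MDH2, GOT1 and GOT2 was called, with a median log2 change of -0.71 for primed hESCs and -0.31 for hEPS cells.

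Amino acid carriers held another pair of the calls. SLC25A22, which imports glutamate, stood at 9.38 FPKM in crotonate-treated and 19.8 FPKM in untreated primed hESCs, at 54.9 FPKM in crotonate-treated and 98.9 FPKM in untreated hEPS cells, and at 16.5 FPKM in endodermal cells. It was lower with crotonate in both states, just past the threshold in primed hESCs (log2 change -1.002, interval of the FPKM ratio 0.419 to 0.535) and short of it in hEPS cells (log2 change -0.84, interval 0.505 to 0.61). SLC25A29, a carrier of basic amino acids, stood at 24.1 FPKM in crotonate-treated and 50.7 FPKM in untreated primed hESCs, at 53.9 FPKM in crotonate-treated and 62.4 FPKM in untreated hEPS cells, and at 19.9 FPKM in endodermal cells. It was called lower in primed hESCs (log2 change -1.04, FPKM ratio 0.475, interval 0.431 to 0.524), and endodermal cells were low as well. Of the other amino acid carriers, SLC25A15 (ornithine), SLC25A38 (glycine, for haem synthesis), SLC25A44 (branched-chain amino acids) and SLC25A18 (glutamate) were called in neither state, and SLC25A2 (ornithine) had at most 0.0532 FPKM. In the urea cycle and ornithine list, ASS1, which makes argininosuccinate, was the 1 called gene of 5 measured in primed hESCs, at 2.50 FPKM in crotonate-treated and 44.6 FPKM in untreated cells.

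Among carriers of cofactors, SLC25A16 and SLC25A42 (coenzyme A), SLC25A17 (a peroxisomal carrier), SLC25A26 (S-adenosylmethionine), SLC25A32 (folate) and SLC25A51 (NAD) were called in neither state, with log2 changes between -0.82 and 0.89 in primed hESCs. SLC25A52 had at most 0.136 FPKM. Of 6 enzymes listed for folate-dependent one-carbon metabolism, 4 were called lower in primed hESCs, beside 12.7% of all measured genes. In hEPS cells 0 of the 6 were called lower, beside 3.02% of all measured genes. MTHFD1L stood at 11.3 FPKM in crotonate-treated and 42.3 FPKM in untreated primed hESCs. MTHFD2 stood at 29.8 FPKM in crotonate-treated and 88.5 FPKM in untreated primed hESCs. Both belong to the one-carbon pathway, as do the remaining called genes MTHFD1 and SHMT2.

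The members related to uncoupling proteins gave a call in each state. SLC25A30 stood at 11.2 FPKM in crotonate-treated and 4.13 FPKM in untreated primed hESCs, at 13.2 FPKM in crotonate-treated and 7.08 FPKM in untreated hEPS cells, and at 3.78 FPKM in endodermal cells. It was higher with crotonate in both states, called in primed hESCs (log2 change 1.25, FPKM ratio 2.72, interval 2.27 to 3.28) and short of a call in hEPS cells (log2 change 0.81, FPKM ratio 1.86, interval 1.63 to 2.13). SLC25A27 (UCP4) stood at 3.91 FPKM in crotonate-treated and 6.69 FPKM in untreated primed hESCs, at 1.63 FPKM in crotonate-treated and 5.05 FPKM in untreated hEPS cells, and at 2.31 FPKM in endodermal cells. It was the 1 member called in hEPS cells (log2 change -1.20, FPKM ratio 0.322) and rested there on as few as 11 reads in treated and 45 in untreated cells, for an interval of 0.15 to 0.633. In primed hESCs its log2 change was -0.65. SLC25A14 (UCP5) was called in neither state.

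SLC25A39 and SLC25A40 import glutathione, the main thiol of the matrix. SLC25A39 stood at 69.7 FPKM in crotonate-treated and 136 FPKM in untreated primed hESCs, at 131 FPKM in crotonate-treated and 147 FPKM in untreated hEPS cells, and at 78.4 FPKM in endodermal cells. SLC25A40 stood at 12.7 FPKM in crotonate-treated and 7.33 FPKM in untreated primed hESCs, at 3.34 FPKM in crotonate-treated and 5.06 FPKM in untreated hEPS cells, and at 5.11 FPKM in endodermal cells. In primed hESCs the abundant SLC25A39 was thus lower with crotonate, just short of a call (log2 change -0.96), and the scarcer SLC25A40 higher (log2 change 0.72). In hEPS cells it came to -0.17 for SLC25A39 and -0.48 for SLC25A40.

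Iron is brought in by SLC25A37 (mitoferrin-1) and SLC25A28 (mitoferrin-2). SLC25A28 stood at 11.01 FPKM in crotonate-treated and 6.95 FPKM in untreated primed hESCs, at 7.81 FPKM in crotonate-treated and 12.0 FPKM in untreated hEPS cells, and at 18.0 FPKM in endodermal cells. It was higher with crotonate in primed hESCs and lower in hEPS cells, with a call in neither. SLC25A37 had log2 changes of -0.07 in primed hESCs and 0.19 in hEPS cells, and 0 of 10 genes of iron and haem handling were called in either state. SLC25A46, an outer-membrane member with a part in mitochondrial shape, stood at 13.2 FPKM in crotonate-treated and 6.36 FPKM in untreated primed hESCs, at 19.7 FPKM in crotonate-treated and 20.6 FPKM in untreated hEPS cells, and at 9.98 FPKM in endodermal cells. Its log2 change in primed hESCs, 0.95, was the nearest below the threshold among the higher members.

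The ATP-Mg/phosphate carriers SLC25A23, SLC25A24 and SLC25A25, which set the adenine nucleotide pool under calcium control, had log2 changes between -0.28 and 0.87 in primed hESCs and between 0.25 and 0.54 in hEPS cells, with 0 calls. SLC25A41 of the same group was not measured (at most 0.537 FPKM). Its span on chromosome 19 (6426037 to 6436267) overlaps that of SLC25A23 (6436081 to 6459792) only at the end. The sources used here do not say how reads in this short shared stretch were counted. The pyrimidine nucleotide carriers SLC25A33 and SLC25A36 had log2 changes between -0.38 and 0.28 in primed hESCs and between -0.59 and -0.32 in hEPS cells, with 0 calls. Of 7 members without a well-known substrate, SLC25A45 was called. It stood at 2.04 FPKM in crotonate-treated and 0.22 FPKM in untreated primed hESCs, at 0.568 FPKM in crotonate-treated and 0.23 FPKM in untreated hEPS cells, and at 1.24 FPKM in endodermal cells. The call in primed hESCs (log2 change 1.32, FPKM ratio 9.25) rested on as few as 6 reads in untreated cells, with an interval of 3.96 to 26.4, and the gene was not measured in hEPS cells. SLC25A34, SLC25A35, SLC25A43, SLC25A47, SLC25A48 and SLC25A53 were called in neither state, SLC25A47 with at most 0.07 FPKM and SLC25A48 with at most 0.531 FPKM.

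Changes in the 2 cell states were set side by side for the 39 members measured in both, which share no column of values. The change was in the same direction for 23 of them, 7 higher and 16 lower with crotonate in both, a share of 59.0% beside 59.6% over all 12111 genes measured in both, while 11 were higher in primed hESCs and lower in hEPS cells and 5 the reverse. Across these 39 genes Pearson's r was 0.393 and Spearman's rho 0.358, beside 0.224 and 0.218 over the same 12111 genes, where genes are not independent replicates. The spread of the changes was wider in primed hESCs, with an SD over members of 0.768, than in hEPS cells, with 0.435, as it was over all genes (1.16 in primed hESCs and 0.67 in hEPS cells). The largest differences in favour of primed hESCs were those of SLC25A20 (1.66), SLC25A40 (1.197), SLC25A28 (1.15) and SLC25A46 (1.006), as log2 change in primed hESCs minus that in hEPS cells. Among the largest in the other direction were those of SLC25A4 (-1.33), SLC25A10 (-1.04) and SLC25A13 (-1.03), which had log2 changes in hEPS cells between -0.05 and 0.07.

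**Figure D5:**
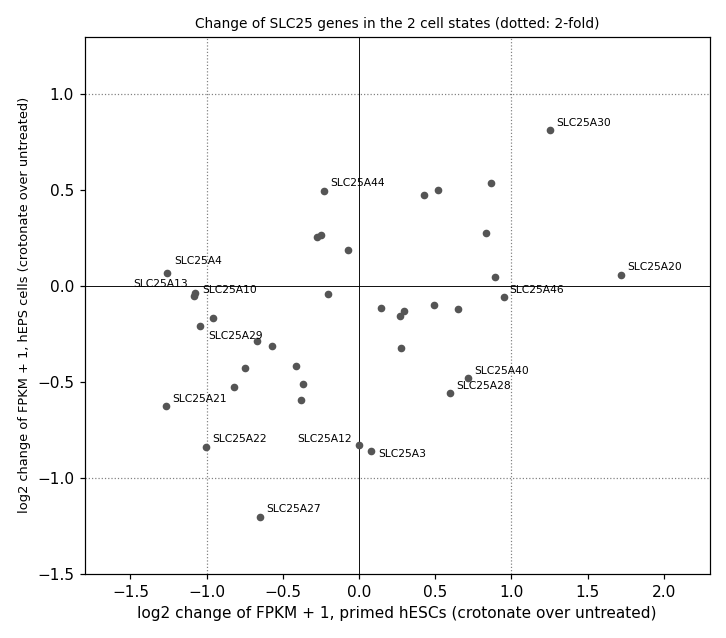
Log2 change with crotonate in hEPS cells against that in primed hESCs for SLC25 genes measured in both (1 is not shown), with dotted lines at 2-fold. SLC25A4, SLC25A10 and SLC25A13 lay far left near 0 in hEPS cells, and SLC25A20 far right near 0.

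Endodermal cells were set beside primed hESCs as levels only, on the log2(FPKM + 1) scale and with no fold between tables. Of the 10 members called in primed hESCs, the endodermal level was nearer to that of crotonate-treated cells for 5 (SLC25A20, SLC25A21, SLC25A29 and SLC25A45 among them) and nearer to that of untreated cells for 5 (SLC25A4, SLC25A10, SLC25A13, SLC25A22 and SLC25A30). Over all 41 measured members it was nearer to crotonate-treated cells for 23 and to untreated cells for 18. The members did not follow 1 side. The same split over all genes was not counted, so it is not read as particular to the members.

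Calls were also counted in the machinery around the carriers, in lists too short to set against the shares of all genes. Of all measured genes 13.9% were called higher and 12.7% lower in primed hESCs, and 8.42% higher and 3.02% lower in hEPS cells. Of 16 genes that import carriers through the outer membrane and the TIM22 complex, TIMM8A, a small chaperone of the space between the membranes, was called lower in primed hESCs (8.0 FPKM in crotonate-treated and 19.9 FPKM in untreated cells) and 0 were called higher, with a median log2 change of -0.31. In hEPS cells 0 of 14 were called, with a median of -0.49. Among 17 mitochondrial transporters outside the family, 2 were called higher and 1 lower in primed hESCs and 0 in hEPS cells. MPC1, a subunit of the pyruvate carrier, stood at 16.4 FPKM in crotonate-treated and 4.87 FPKM in untreated primed hESCs. SFXN3, a sideroflexin, stood at 8.64 FPKM in crotonate-treated and 1.63 FPKM in untreated primed hESCs. SFXN5 was called lower, at 4.50 FPKM in crotonate-treated and 10.3 FPKM in untreated primed hESCs. Of 9 measured regulators of mitochondrial biogenesis, TFB1M, a mitochondrial rRNA methyltransferase, was called lower in primed hESCs (2.74 FPKM in crotonate-treated and 6.5 FPKM in untreated cells), and the median log2 change was -0.71.

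Promoter sequences from RefSeq (build GRCh38.p14), from 250 bases before to 50 after the annotated start, were matched to 40 of the 48 members. Motifs of factors known to drive nuclear genes for mitochondria were searched on both strands. A gene was counted when any of its listed promoters held the motif, and some members, SLC25A22 among them, had several. The GABP/ETS motif CCGGAAG was found for 11 of 40 members (27.5%), beside 16.5% of protein-coding genes and 12.2% of all 27305 genes with a promoter. The E-box CACGTG was found for 9 of 40 (22.5%), beside 10.9% of protein-coding genes and 8.77% of all genes with a promoter. The NRF1 motif GCGCATGCG and the ERR motif TCAAGGTCA were found for 0 of 40, beside 3.11% and 0.335% of protein-coding genes. The median GC content, taken from the first listed promoter of each gene, was 66.2% for members and 62.7% for protein-coding genes. Matches are a description of letters, not of binding. Of 8 called members of primed hESCs with a promoter, 3 held CCGGAAG (SLC25A4, SLC25A20 and SLC25A22) and 2 held CACGTG (SLC25A13 and SLC25A22). In SLC25A22 these motifs lay in different promoters. CCGGAAG was thus found in members called in both directions and CACGTG in 2 called lower, numbers too small to read further. The promoters of 3 called members are printed, 5′ to 3′ on the strand of the gene with the motif in capitals, since they include SLC25A20, called higher, and members lower in primed hESCs but near 0 in hEPS cells. They lie at chr3:48898833-48899132 (minus strand), chr4:185143016-185143315 (plus strand) and chr7:96322049-96322348 (minus strand).
SLC25A20, called higher, CCGGAAG in capitals: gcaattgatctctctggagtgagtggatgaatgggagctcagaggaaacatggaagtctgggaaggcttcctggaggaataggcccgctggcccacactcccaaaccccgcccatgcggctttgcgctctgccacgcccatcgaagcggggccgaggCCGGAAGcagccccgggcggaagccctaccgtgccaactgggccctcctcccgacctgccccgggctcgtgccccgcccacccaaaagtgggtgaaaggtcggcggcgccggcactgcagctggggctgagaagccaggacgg
SLC25A4, called lower, CCGGAAG in capitals: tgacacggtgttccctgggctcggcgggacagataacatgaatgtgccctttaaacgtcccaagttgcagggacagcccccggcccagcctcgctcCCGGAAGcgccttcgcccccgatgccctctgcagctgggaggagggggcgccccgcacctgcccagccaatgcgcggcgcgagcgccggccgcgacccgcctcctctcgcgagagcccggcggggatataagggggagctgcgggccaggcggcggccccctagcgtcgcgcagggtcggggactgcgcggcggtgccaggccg
SLC25A13, called lower, CACGTG in capitals: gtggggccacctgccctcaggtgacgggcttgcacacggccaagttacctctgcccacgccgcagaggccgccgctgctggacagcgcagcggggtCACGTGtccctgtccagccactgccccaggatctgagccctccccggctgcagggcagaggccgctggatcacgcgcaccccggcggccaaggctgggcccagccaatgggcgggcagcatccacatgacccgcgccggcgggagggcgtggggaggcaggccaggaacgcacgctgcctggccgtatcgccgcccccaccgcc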

How the data were processed

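Polyadenylated RNA of 10 labelled samples was sequenced as paired-end reads on an Illumina HiSeq2500. Per the submitters' processing notes and the study's methods, the authors used TopHat 1.3.2 with Cufflinks 1.1.0 for alignment (hg38), HTSeq 0.6.0 with StringTie 1.3.0 for counting and edgeR for normalization, and deposited FPKM values. How the 2 samples of a group became 1 column, and the read totals, are not given in the sources used here, and differing methods are stated for RNA extraction. The hEPS table holds more genes (26731) than each of the other 2 (19198), so no fold was taken between tables.

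Changes were differences of log2(FPKM + 1) within a table, a scale that understates changes of low genes. No replicate test was possible, and the depth behind values was taken from whole-read steps: of 879 (primed) and 1724 (hEPS) genes below 0.2 FPKM in both columns, 81.3% and 91.4% had values related by small whole numbers (at most 12) after 1 shared factor was divided out. Of 2000 genes checked per table, 84.7% and 87.4% gave whole reads, against 2.4% and 0.75% with the factor shifted. The recovery was tested on simulated data.

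Members, lists and rules were chosen with earlier results of these data known. All 5 values were given for called members, the 8 most abundant, all members of 6 substrate groups (ADP/ATP, phosphate, citrate and dicarboxylate, malate-aspartate, carnitine, 2-oxoadipate) and the 4 largest differences between states each way. Of other lists, up to 3 called genes are given with values. The search of pseudoautosomal genes was added after the level of SLC25A6 was seen. Alternatives were a pseudocount of 0.1, no filter, a filter at 5 FPKM, rescaled sums, quantile normalization and other fold rules. The software was scipy 1.17.1, pandas 2.3.3 and numpy 2.4.6 under Python 3.11.15, with matplotlib 3.10.9 for plots. Of the members, 1 is counted but its values are not reported here. Proteins, metabolites and imaging were not analysed here.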

Additional observations from a re-analysis of the deposited data

Results flagged for a closer look

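For 6 of the 39 members measured in both cell states, the change with crotonate was opposite in primed hESCs and hEPS cells and both counting intervals left out a ratio of 1. The share of all genes that meet this rule was not counted, so the number is not read as particular to the family. The direction was the same in both states for 59.0% of members, beside 59.6% of all genes. The difference between states was not tested, since each group has 1 column of values. As log2 change in primed hESCs minus that in hEPS cells, it was 1.197 for the glutathione carrier SLC25A40, 1.15 for the iron carrier SLC25A28, 0.94 for the phosphate carrier SLC25A3 and 0.60 for the pyrimidine nucleotide carrier SLC25A33, all higher with crotonate in primed hESCs and lower in hEPS cells. It was -0.72 for SLC25A44, which carries branched-chain amino acids, and -0.53 for the ATP-Mg/phosphate carrier SLC25A25, both lower in primed hESCs and higher in hEPS cells. None of the 6 was called in either state.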

How the results depend on the processing

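No paired analysis was possible because each group has 1 column of values and the columns carry no replicate numbers. For the same reason no replicate could be left out. In primed hESCs the members called higher numbered 5 with a pseudocount of 0.1, 12 with a ratio of FPKM over 1.5 and 7 with a ratio of at least 2 without a pseudocount, a rule chosen after seeing the data, against 3 as reported. Members called lower numbered 13 with a ratio over 1.5, against 7. The median log2 change of the members was -0.22 with a filter at 5 FPKM, beside -0.11 over all genes, against -0.07 as reported. In hEPS cells the members called lower numbered 2 with a pseudocount of 0.1, 10 with a ratio over 1.5 and 2 with a ratio of at least 2, against 1, and those called higher numbered 2 with a ratio over 1.5, against 0. With a ratio over 1.5 the members' shares were 29.3% higher and 31.7% lower in primed hESCs, beside 25.3% and 28.5% of all genes, and 5.0% higher and 25.0% lower in hEPS cells, beside 20.1% and 18.1%. Under quantile normalization 12.2% of members were called lower in primed hESCs, beside 12.9% of all genes. The largest change passed to SLC25A45 with a pseudocount of 0.1 (2.74, beside 2.16 for SLC25A20) and with rescaled columns (2.02, beside 1.99). Most alternatives leave a call in place by their construction. Under the 5 FPKM filter and quantile normalization, which can remove one, of 22 values of the 11 called changes 18 kept the call, 4 lost it and 0 changed direction. The calls of SLC25A21 and SLC25A45 were lost at a filter of 5 FPKM, which neither gene reaches, and those of SLC25A22 (log2 change -0.99) and SLC25A29 (-0.997, just short of 2-fold) under quantile normalization. Spread between cultures is unknown for every value.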
